A study of Mus musculus with 7 samples.

Results

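The report concerns 46 genes that build ribosomes, measured in cells sorted from the mouse intestine. The members are the genes whose probes carry the name of a listed nucleolar, RNA polymerase I or rRNA processing gene, and all 46 of the 46 listed symbols were found on the array, with 73 probes. They stand among 17537 genes tested. The list covers 8 nucleolar proteins, 5 RNA polymerase I subunits, 8 proteins of small nucleolar ribonucleoproteins (snoRNPs), 11 factors of the small ribosomal subunit and 14 factors of the large ribosomal subunit.

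Ribosomes are built in the nucleolus. RNA polymerase I transcribes the long rRNA precursor, snoRNPs guide its methylation and pseudouridylation, and sets of processing factors cut it and fold it with ribosomal proteins into the small and the large subunit. In the intestinal crypt, dividing stem cells and progenitors need many new ribosomes, and the transcription factor Myc is a known driver of these genes.

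The sorted fractions were Dll1 GFP-high cells at low, medium and high surface CD24, with 2 arrays each, and Lgr5 GFP-high cells, with 1 array. The Dll1 cells came from Dll1-EGFP-ires-CreERT2 mice, in which the Dll1 promoter drives the green fluorescent protein (GFP). The Lgr5 cells came from Lgr5-EGFP-ires-CreERT2 mice, in which the Lgr5 promoter drives it. Sorted fraction and mouse line therefore cannot be told apart in a difference from Lgr5 cells. No treatment, age or strain is given for any group, and every fraction carries a knock-in allele with CreERT2. Dll1 encodes a Notch ligand made by cells that enter the secretory lineage, and Lgr5 marks the stem cells of the crypt base. On each array the sample RNA carried Cy3 and a common RNA from whole small intestine carried Cy5, so a level below is log2 of sample over whole small intestine. A difference is the log2 difference between groups, given with its standard error (SE), and a gene is said to have risen or fallen where limma's adjusted p, over all genes tested, was under 0.05. The Lgr5 group is a single array whose spread is taken to be that of the other groups, and the design names biological replicates without tying them to animals, so p-values measure the spread between these samples. In sorted bulk RNA, fewer cells of a type and less RNA per cell cannot be told apart.

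The labels were checked against marker genes. The Lgr5 level was −1.23 to 1.36 on the 6 Dll1 arrays and 2.51 on the Lgr5 array, and Cd24a rose with the gate, with means of −0.64 in CD24 low, 0.81 in CD24 medium and 3.40 in CD24 high. Dll1 itself went against its label in the CD24 high fraction, with 0.61 and −0.04 there and 0.88 on the Lgr5 array. Goblet cell markers were higher than in Lgr5 cells for 8 of 8 genes in CD24 low, 8 of 8 in CD24 medium and 6 of 8 in CD24 high. Paneth cell markers were higher for 1 of 5 measured genes in CD24 low, 5 of 5 in CD24 medium and 5 of 5 in CD24 high, where their median level was 5.33 and 5.56 on the 2 arrays. Enteroendocrine markers were higher for 3, 9 and 0 of 10 genes and immune markers for 1, 1 and 5 of 9 (with 1 lower) in CD24 low, medium and high, and stem cell markers were lower for 8, 8 and 7 of 10. Mesenchyme markers were higher for 3, 2 and 6 of 7 genes and enterocyte markers for 7, 2 and 5 of 9, in the same order, and tuft cell markers for 1, 1 and 2 of 6. The part of these other cell types in the differences below was not tested. The share of gene probes well above background was 42.5 to 44.4% in CD24 high and 52.8 to 60.5% on the others. All 46 members passed the filter on dim probes, and 44 of them stood well above background on all 7 arrays.

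**Figure D1:**
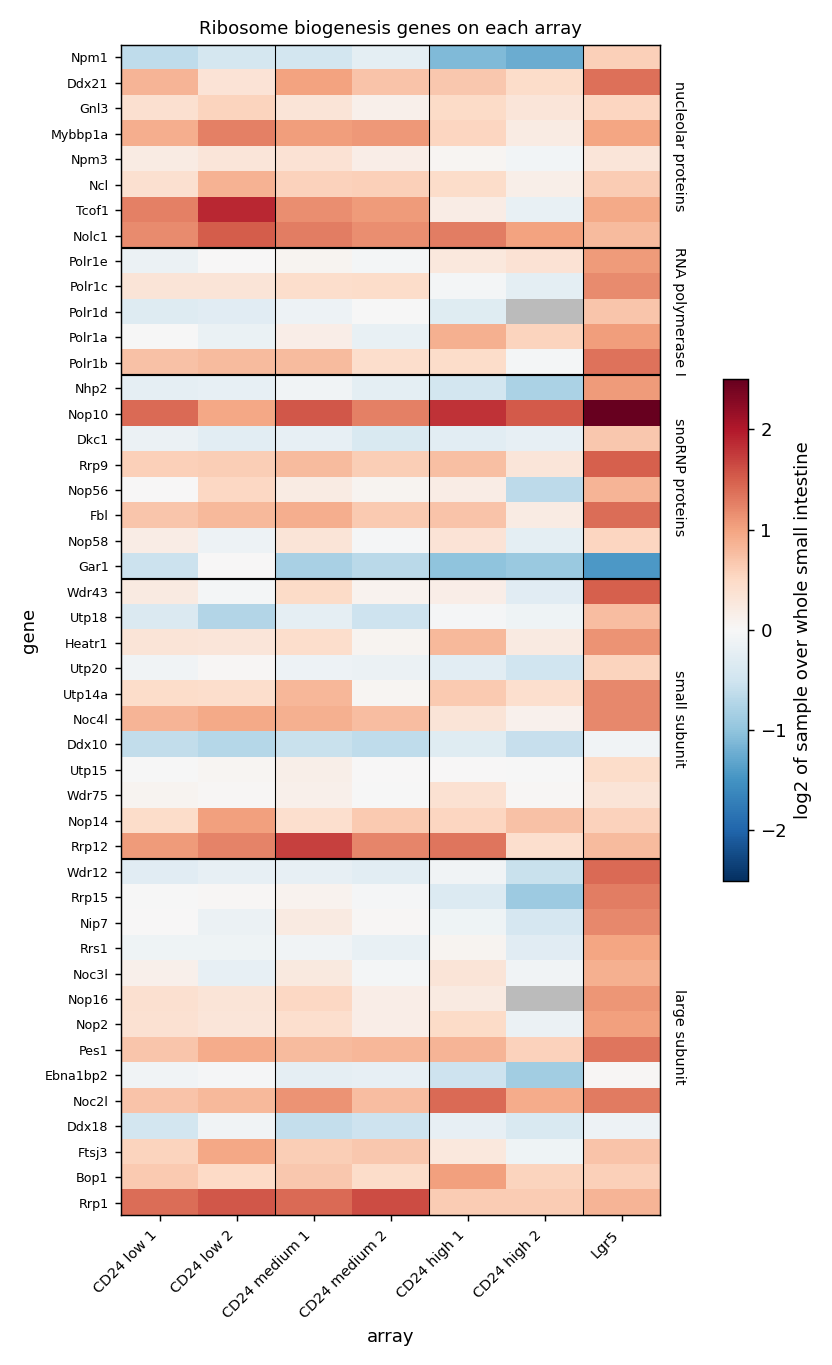
Levels of the 46 ribosome biogenesis genes on each of the 7 arrays, as log2 of sample over whole small intestine, grouped by role and ordered within a role by the mean difference from Lgr5 cells. Gray cells are spots left out for an outlier mark. The rightmost column, the Lgr5 array, is above all 6 Dll1 arrays for 29 of the 44 genes with a full row.

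Ribosome biogenesis genes were lower in all 3 Dll1 fractions than in Lgr5 cells. In CD24 low cells 15 of 46 members fell and 1 rose, against 9.78% of all genes that fell and 11.9% that rose. In CD24 medium cells 14 fell and 0 rose, where 8.5% of all genes fell and 10.3% rose, and 25 members had an unadjusted p under 0.05. In CD24 high cells 19 fell and 0 rose, where 14.6% of all genes fell and 21.2% rose, and 29 members had an unadjusted p under 0.05. The share of all genes with an unadjusted p under 0.05 was not counted, so the 25 and 29 stand without a comparison. The median difference of the members was −0.59 in CD24 low, −0.65 in CD24 medium and −0.76 in CD24 high, while that of all genes was 0.10, 0.09 and 0.10 in the same comparisons. Differences were below 0 for 38, 40 and 41 of the 46 members in CD24 low, medium and high, against 43.2%, 43.9% and 44% of all genes. The 3 comparisons share the Lgr5 array, so they are not independent of each other.

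Slides were inferred from the scan date in the file headers, with arrays of the same scan date taken to share a slide. By that grouping, the count in CD24 low rests on arrays that were never on the same slide as Lgr5. With slide as a term, the members called in CD24 low numbered 1 (Wdr12) and the median was −0.29, and 1402 of all genes were called, against 3798 without that term. On the slide that held Lgr5 together with 1 array each of CD24 medium and CD24 high, the median was −0.52 for CD24 medium and −0.55 for CD24 high. Fewer members were called in CD24 low without its replicate 2, and in CD24 medium without either of its arrays. The single array left in a group then takes its spread from the rest. In CD24 low, fewer of all genes were called as well. The members' median relative to all genes was −0.7045 there, against −0.695 with all arrays. In CD24 medium it was −0.80 without replicate 1 and −0.59 without replicate 2, against −0.74.

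On the arrays themselves, the median level of the 44 members with full data was 0.28 and 0.31 in CD24 low, 0.39 and 0.08 in CD24 medium, 0.32 and −0.06 in CD24 high, and 0.92 in Lgr5 cells. The Lgr5 array was thus above every Dll1 array, while the arrays of the 3 Dll1 fractions overlapped. It exceeded all 6 Dll1 arrays for 29 of 44 members, as it did for 25.6% of all genes, and lay below all 6 for 2 members (Gar1 and Nolc1), as it did for 34.3% of all genes. Lgr5 had the highest group mean for 35 of 44 members (31% of all genes), and CD24 high had the lowest for 24 (28.3% of all genes).

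Across the 3 comparisons, 12 members fell in every Dll1 fraction, 3 in 2 fractions, 6 in 1 fraction and 25 in none. The matching shares of all genes were not counted, and the shared Lgr5 array ties the 3 comparisons together. A p that missed the threshold here does not show an unchanged gene, since 2 arrays were set against 1. The 12 were Npm1, Polr1c, Polr1d, Polr1e, Dkc1, Nhp2, Utp18, Wdr43, Wdr12, Rrs1, Rrp15 and Nip7, and each of the 5 roles has at least 1 gene among them.

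**Figure D2:**
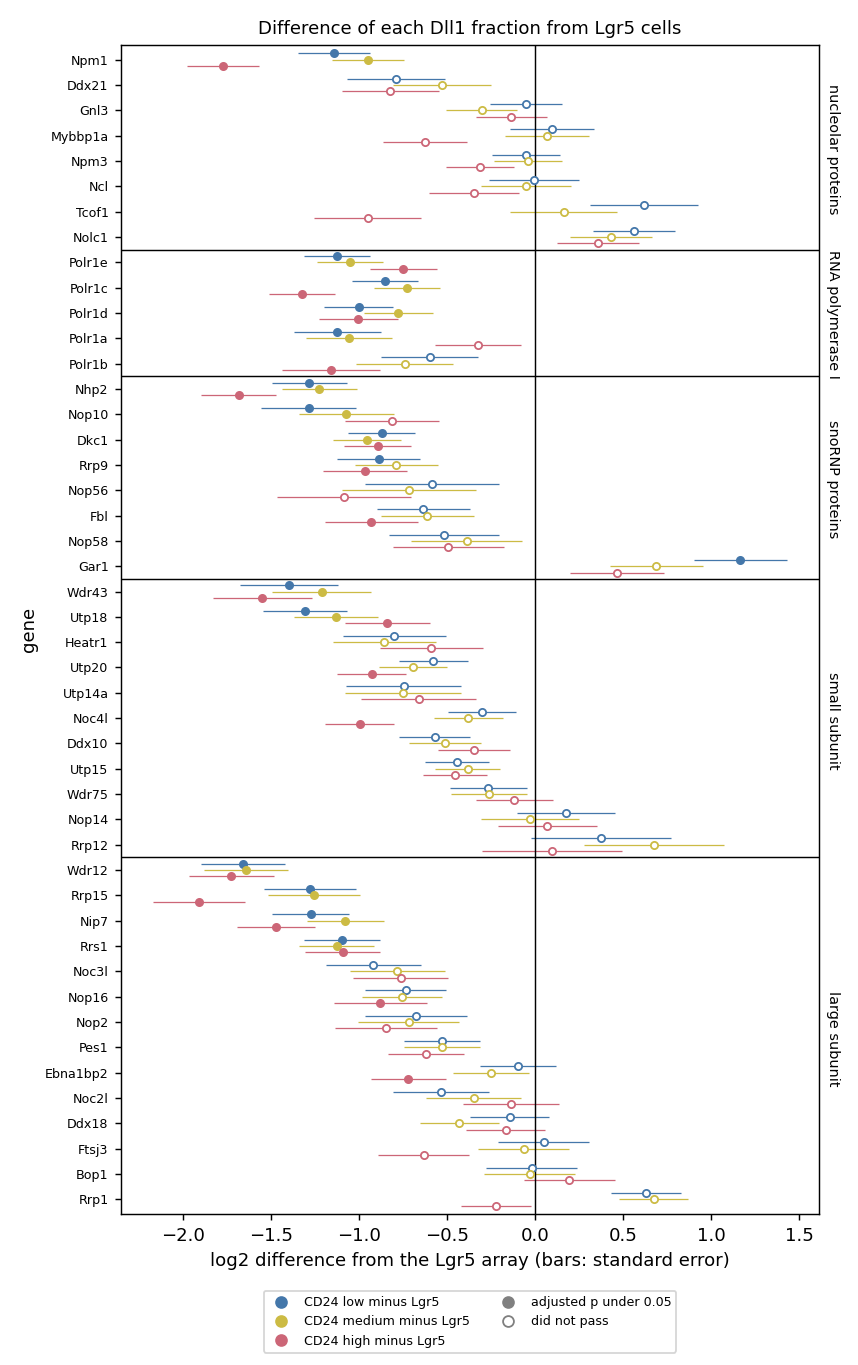
Log2 difference of the CD24 low, medium and high fractions from the Lgr5 array for each of the 46 genes, with standard errors as bars and filled points where the adjusted p was under 0.05. Most points lie left of 0 in all 3 colours, nucleolar proteins other than Npm1 and Ddx21 mostly lie nearer 0, and Gar1 is the filled point on the right.

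For 10 of those 12 genes RefSeq's table held a promoter window of 250 bases before to 50 after the start site on GRCm38.p6, and for all members 40 windows were found. A window was searched on both strands for CACGTG, the letters of the E-box that Myc with its partner Max binds, and for CCGGAAG, the core letters that ETS family factors bind. The E-box letters were in 6 of 40 member windows (15%), against 7.9% of the windows of 17492 protein-coding genes. They were in 2 of the 10 windows of genes that fell in every fraction (20%) and in 3 of 22 windows of genes that fell in none (13.6%). The CCGGAAG letters were in 14 of 40 member windows (35%), in 6 of the 10 windows of genes that fell in every fraction (60%), in 7 of 22 windows of genes that fell in none (31.8%), and in 11.9% of the protein-coding windows. The shares are descriptions of letters, not of bound sites. The 5 windows of genes that fell in every fraction shown here were chosen because they carry these letters, in lower case with each match in capitals, either CACGTG or CCGGAAG, the last also as its reverse complement CTTCCGG. They lie on GRCm38.p6 at chr17:71615965-71616264 on the plus strand (Wdr43), chr11:93885717-93886016 on the minus strand (Utp18), chr8:107056627-107056926 on the plus strand (Nip7), chr1:186749309-186749608 on the minus strand (Rrp15) and chr11:51619523-51619822 on the plus strand (Nhp2).
Wdr43: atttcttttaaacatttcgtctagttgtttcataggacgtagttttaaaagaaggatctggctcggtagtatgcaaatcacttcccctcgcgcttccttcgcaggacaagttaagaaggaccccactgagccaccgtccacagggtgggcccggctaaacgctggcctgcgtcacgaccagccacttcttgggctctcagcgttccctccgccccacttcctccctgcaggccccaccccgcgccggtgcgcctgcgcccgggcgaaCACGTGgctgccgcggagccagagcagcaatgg
Utp18: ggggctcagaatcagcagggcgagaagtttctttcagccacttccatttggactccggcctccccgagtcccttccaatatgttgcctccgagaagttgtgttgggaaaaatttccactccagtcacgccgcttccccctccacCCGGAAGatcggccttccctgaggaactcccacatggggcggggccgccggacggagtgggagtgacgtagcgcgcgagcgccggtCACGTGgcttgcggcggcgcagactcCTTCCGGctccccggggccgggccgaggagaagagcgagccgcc
Nip7: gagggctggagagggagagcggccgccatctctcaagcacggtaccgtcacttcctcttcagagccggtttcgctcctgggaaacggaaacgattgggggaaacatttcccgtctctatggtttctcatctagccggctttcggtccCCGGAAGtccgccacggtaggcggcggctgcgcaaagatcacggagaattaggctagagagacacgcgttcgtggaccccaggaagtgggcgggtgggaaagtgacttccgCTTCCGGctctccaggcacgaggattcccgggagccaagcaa
Rrp15: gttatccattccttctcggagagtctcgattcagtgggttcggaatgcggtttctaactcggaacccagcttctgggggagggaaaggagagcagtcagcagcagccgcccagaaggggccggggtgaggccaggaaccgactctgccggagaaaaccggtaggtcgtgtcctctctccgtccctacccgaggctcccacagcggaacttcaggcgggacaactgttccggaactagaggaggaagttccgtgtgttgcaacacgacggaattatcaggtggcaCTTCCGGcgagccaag
Nhp2: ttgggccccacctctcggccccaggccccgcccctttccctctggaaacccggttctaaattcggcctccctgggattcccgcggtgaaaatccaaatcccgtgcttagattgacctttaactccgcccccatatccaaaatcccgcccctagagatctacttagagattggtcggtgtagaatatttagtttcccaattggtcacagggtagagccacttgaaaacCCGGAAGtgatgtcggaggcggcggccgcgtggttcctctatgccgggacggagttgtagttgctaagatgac
The E-box letters begin 17 bases after the start site in Wdr43 and 20 bases before it in Utp18. Nip7 and Utp18 each hold the CCGGAAG letters more than once, and Rrp15 and Nhp2 hold them once.

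In each Dll1 fraction 4 of the 5 RNA polymerase I subunits fell. Of all genes 9.78% fell in CD24 low, 8.5% in CD24 medium and 14.6% in CD24 high. The median difference of the subunits was −1.0, −0.78 and −1.0 in the same order, against 0.10, 0.09 and 0.10 for all genes. Each count includes Polr1d, whose probes disagree. Polr1c, a subunit shared with RNA polymerase III, measured 0.33 and 0.32 in CD24 low, 0.43 and 0.47 in CD24 medium, −0.05 and −0.24 in CD24 high, and 1.18 in Lgr5 cells. The Lgr5 array lies above every Dll1 array, and CD24 high is the lowest. Its difference from Lgr5 was −0.85 ± 0.19 SE in CD24 low (adjusted p = 0.023), −0.73 ± 0.19 SE in CD24 medium (adjusted p = 0.041) and −1.32 ± 0.19 SE in CD24 high (adjusted p = 0.0028). The call in CD24 high held under every alternative, that in CD24 low was lost without CD24 low replicate 2 or either CD24 medium array, and that in CD24 medium without any 1 Dll1 array, with adjusted p up to 0.063 and 0.15.

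Polr1e, which encodes a subunit specific to RNA polymerase I, measured −0.14 and 0.00 in CD24 low, 0.06 and −0.05 in CD24 medium, 0.26 and 0.36 in CD24 high, and 1.06 in Lgr5 cells. Here CD24 low is the lowest group and no Dll1 array comes near Lgr5. Its differences were −1.13 ± 0.19 SE in CD24 low (adjusted p = 0.011), −1.05 ± 0.19 SE in CD24 medium (adjusted p = 0.014) and −0.75 ± 0.19 SE in CD24 high (adjusted p = 0.023). Polr1d, shared with RNA polymerase III, fell in all 3 fractions on its brightest probe, and CD24 high rests on 1 array because the other spot was marked as an outlier. Another Polr1d probe, nearer the 3′ end, gave 0.19 in CD24 low, −0.14 in CD24 medium and −0.14 in CD24 high, so its probes disagree. The Polr1e calls were lost without CD24 medium replicate 2 in CD24 medium (adjusted p up to 0.075) and without CD24 high replicate 1 or either CD24 medium array in CD24 high (up to 0.068), and those of Polr1d without several single arrays in CD24 low and medium.

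Polr1a, which encodes the largest subunit and forms part of the active centre, measured 0.00 and −0.16 in CD24 low, 0.16 and −0.19 in CD24 medium, 0.89 and 0.55 in CD24 high, and 1.04 in Lgr5 cells. CD24 high sits between the other Dll1 fractions and Lgr5 without overlap. Polr1a fell in CD24 low (−1.12 ± 0.25 SE, adjusted p = 0.023) and CD24 medium (−1.06 ± 0.25 SE, adjusted p = 0.03), while CD24 high differed from Lgr5 by −0.32 ± 0.25 SE (adjusted p = 0.36). Polr1b, the other subunit of the active centre, measured 0.74 and 0.80 in CD24 low, 0.80 and 0.45 in CD24 medium, 0.46 and −0.05 in CD24 high, and 1.36 in Lgr5 cells. It fell in CD24 high (−1.16 ± 0.28 SE, adjusted p = 0.019) and did not pass in CD24 low (−0.60 ± 0.28 SE) or CD24 medium (−0.74 ± 0.28 SE), and without CD24 high replicate 2 its adjusted p in CD24 high was 0.055. Between fractions Polr1b did not pass, with 0.56 for CD24 low minus CD24 high (adjusted p = 0.14) and 0.42 for CD24 medium minus CD24 high (adjusted p = 0.24). The Polr1a calls were lost without CD24 low replicate 2 in CD24 low (adjusted p = 0.07) and without either array of CD24 medium in CD24 medium (up to 0.13).

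Among snoRNP proteins, 4 of 8 fell and 1 rose in CD24 low, 3 fell in CD24 medium and 4 fell in CD24 high. The shares that fell were 50%, 37.5% and 50%, against 9.78%, 8.5% and 14.6% of all genes. Box H/ACA proteins carry out pseudouridylation. Nhp2, a core protein of the particle, measured −0.22 and −0.21 in CD24 low, −0.08 and −0.24 in CD24 medium, −0.45 and −0.78 in CD24 high, and 1.07 in Lgr5 cells. All Dll1 arrays lie below the whole-intestine level and Lgr5 lies above it. Nhp2 fell 2.43-fold in CD24 low (−1.28 ± 0.21 SE, adjusted p = 0.01), 2.34-fold in CD24 medium (−1.23 ± 0.21 SE, adjusted p = 0.013) and 3.21-fold in CD24 high (−1.68 ± 0.21 SE, adjusted p = 0.0019). Its call held in CD24 high under every alternative, in CD24 low under all but slide as a term, and in CD24 medium without replicate 2 the adjusted p was 0.066.

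Dkc1, the pseudouridine synthase, measured −0.15 and −0.27 in CD24 low, −0.20 and −0.38 in CD24 medium, −0.26 and −0.20 in CD24 high, and 0.66 in Lgr5 cells. The 6 Dll1 arrays span a narrow range below Lgr5, and the probe was not well above background on CD24 high replicate 2. The differences were −0.87 ± 0.19 SE in CD24 low, −0.95 ± 0.19 SE in CD24 medium and −0.90 ± 0.19 SE in CD24 high (adjusted p = 0.024, 0.019 and 0.013), while a dimmer Dkc1 probe gave 0.01 in CD24 low, −0.13 in CD24 medium and 0.14 in CD24 high. Nop10, a small core protein of the same particle, measured 1.42 and 0.97 in CD24 low, 1.56 and 1.26 in CD24 medium, 1.80 and 1.53 in CD24 high, and 2.48 in Lgr5 cells. It fell in CD24 low (−1.29 ± 0.27 SE, adjusted p = 0.02) and CD24 medium (−1.07 ± 0.27 SE, adjusted p = 0.038), with −0.81 ± 0.27 SE in CD24 high (adjusted p = 0.056). Both genes lost their call in CD24 low without CD24 low replicate 2 and in CD24 medium without either of its arrays, with adjusted p up to 0.15, and Nop10 also in CD24 medium without either CD24 high array.

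Gar1, the remaining box H/ACA protein, moved in the opposite direction and was the one member that rose in any fraction. It measured −0.54 and 0.02 in CD24 low, −0.81 and −0.67 in CD24 medium, −1.0 and −0.92 in CD24 high, and −1.43 in Lgr5 cells. The Lgr5 array is the lowest of all 7 and CD24 low is the highest group. Gar1 rose 2.24-fold in CD24 low (1.16 ± 0.27 SE, adjusted p = 0.026) and did not pass in CD24 medium (0.69 ± 0.27 SE) or CD24 high (0.46 ± 0.27 SE). The call in CD24 low was lost in 6 of 22 alternatives, with adjusted p up to 0.14 over all of them. It was lost without CD24 low replicate 2, with slide as a term and with the compared groups alone. The signals of the scanner software, the series matrix and the sample channel alone also lost it. The array holds 1 measured probe for it, at chr3:129532258-129532317 on mm9.

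Box C/D particles carry out methylation, and of their proteins among the members Fbl and Rrp9 passed in at least 1 fraction. Fbl, fibrillarin, the methyltransferase, measured 0.70 and 0.82 in CD24 low, 0.91 and 0.65 in CD24 medium, 0.72 and 0.21 in CD24 high, and 1.39 in Lgr5 cells. Lgr5 is above every Dll1 array. It fell in CD24 high (−0.93 ± 0.26 SE, adjusted p = 0.035) and did not pass in CD24 low (−0.64 ± 0.26 SE) or CD24 medium (−0.61 ± 0.26 SE), the call was lost without CD24 high replicate 2 or either CD24 medium array, with adjusted p up to 0.1 over the alternatives, and 1 pseudogene is named for Fbl in the annotation. Nop58, a core protein of the same particle, measured 0.19 and −0.14 in CD24 low, 0.33 and −0.03 in CD24 medium, 0.35 and −0.25 in CD24 high, and 0.54 in Lgr5 cells, with Dll1 fractions that overlap, and passed in no fraction. Nop56, its partner, had differences of −0.58 ± 0.38 SE in CD24 low, −0.71 ± 0.38 SE in CD24 medium and −1.09 ± 0.38 SE in CD24 high, none past the threshold. Rrp9, a protein of the U3 particle, fell in CD24 low (−0.89 ± 0.24 SE, adjusted p = 0.042) and CD24 high (−0.97 ± 0.24 SE, adjusted p = 0.021), the first lost without any 1 array of CD24 low or medium and the last without CD24 high replicate 2, with adjusted p up to 0.096 and 0.059.

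Of the 8 nucleolar proteins only Npm1 passed against Lgr5, in all 3 fractions. That share, 12.5% in each fraction, is near the 9.78%, 8.5% and 14.6% of all genes that fell in CD24 low, medium and high. Npm1, nucleophosmin, an abundant nucleolar chaperone, measured −0.63 and −0.44 in CD24 low, −0.45 and −0.24 in CD24 medium, −1.10 and −1.24 in CD24 high, and 0.60 in Lgr5 cells. CD24 high is below the other fractions without overlap and all 6 arrays are below Lgr5. Npm1 fell 2.2-fold in CD24 low (−1.14 ± 0.20 SE, adjusted p = 0.013), 1.93-fold in CD24 medium (−0.95 ± 0.20 SE, adjusted p = 0.024) and 3.41-fold in CD24 high (−1.77 ± 0.20 SE, adjusted p = 0.0014). A further Npm1 probe gave −1.20 in CD24 low, −0.95 in CD24 medium and −1.80 in CD24 high, close to the first. Its call in CD24 medium was lost without either array of that fraction, with adjusted p up to 0.1.

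Ncl, nucleolin, another abundant nucleolar protein, measured 0.41 and 0.86 in CD24 low, 0.58 and 0.60 in CD24 medium, 0.45 and 0.14 in CD24 high, and 0.64 in Lgr5 cells on its brightest probe, and the groups overlap. Its differences were −0.01 ± 0.26 SE in CD24 low, −0.05 ± 0.26 SE in CD24 medium and −0.35 ± 0.26 SE in CD24 high, none past the threshold. The array holds 4 Ncl probes that disagree: the probe nearest the 3′ end gave −1.09 in CD24 low, −1.06 in CD24 medium and −1.09 in CD24 high. Ddx21, an RNA helicase of rRNA transcription and processing, measured 0.85 and 0.34 in CD24 low, 1.00 and 0.71 in CD24 medium, 0.68 and 0.45 in CD24 high, and 1.39 in Lgr5 cells. It had the second largest mean difference of the group, with −0.79 ± 0.28 SE in CD24 low, −0.53 ± 0.28 SE in CD24 medium and −0.82 ± 0.28 SE in CD24 high, and passed in none. Its other probes lie further from the 3′ end and gave 0.44 and 0.64 in CD24 low.

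Tcof1, treacle, which links RNA polymerase I to rRNA processing, measured 1.25 and 1.88 in CD24 low, 1.17 and 1.06 in CD24 medium, 0.18 and −0.18 in CD24 high, and 0.95 in Lgr5 cells. Both CD24 low and both CD24 medium arrays are above Lgr5, and both CD24 high arrays are below it. Differences from Lgr5 did not pass in CD24 low (0.62 ± 0.31 SE, adjusted p = 0.19), CD24 medium (0.16 ± 0.31 SE, adjusted p = 0.75) or CD24 high (−0.95 ± 0.31 SE, adjusted p = 0.051). Nolc1, a chaperone of snoRNPs, had differences of 0.56 ± 0.23 SE in CD24 low, 0.43 ± 0.23 SE in CD24 medium and 0.35 ± 0.23 SE in CD24 high on its brightest probe, and −0.93, −0.89 and −1.07 in the same order on its probe nearest the 3′ end. Gnl3, Npm3 and Mybbp1a also passed in no fraction against Lgr5, with differences between −0.62 and 0.10.

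Of 11 small subunit factors, 2 fell in CD24 low, 2 in CD24 medium and 4 in CD24 high (18.2%, 18.2% and 36.4%), against 9.78%, 8.5% and 14.6% of all genes, so the first 2 counts lie about 1 gene above that share. Wdr43, a protein of the small subunit processome, measured 0.23 and −0.04 in CD24 low, 0.48 and 0.09 in CD24 medium, 0.16 and −0.27 in CD24 high, and 1.49 in Lgr5 cells. No Dll1 array reaches the Lgr5 level. It fell in CD24 low (−1.40 ± 0.28 SE, adjusted p = 0.018), CD24 medium (−1.21 ± 0.28 SE, adjusted p = 0.03) and CD24 high (−1.55 ± 0.28 SE, adjusted p = 0.007) on the probe nearest its 3′ end, while another probe gave 0.01 in CD24 low, 0.20 in CD24 medium and −0.41 in CD24 high. With the mean of both probes its calls in CD24 low and CD24 medium were lost, as they were without CD24 low replicate 2 and without CD24 medium replicate 2, with adjusted p up to 0.11 and 0.23.

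Utp18, also of the processome, measured −0.36 and −0.73 in CD24 low, −0.22 and −0.51 in CD24 medium, −0.03 and −0.12 in CD24 high, and 0.76 in Lgr5 cells. CD24 low is the lowest group and CD24 high the highest of the 3 Dll1 fractions, all below Lgr5. The differences were −1.31 ± 0.24 SE in CD24 low, −1.13 ± 0.24 SE in CD24 medium and −0.84 ± 0.24 SE in CD24 high (adjusted p = 0.014, 0.022 and 0.035). Utp18 lost its call in CD24 medium without CD24 medium replicate 2 and in CD24 high without any 1 array of CD24 medium or high, with adjusted p up to 0.1. Utp20 fell in CD24 high (−0.93 ± 0.20 SE, adjusted p = 0.012), as did Noc4l (−1.0 ± 0.20 SE, adjusted p = 0.0092), both factors of early small subunit assembly. Nop14, another of these factors, measured 0.46 and 1.03 in CD24 low, 0.42 and 0.66 in CD24 medium, 0.55 and 0.73 in CD24 high, and 0.57 in Lgr5 cells, with groups that overlap and differences between −0.03 and 0.17. Heatr1, Utp14a, Utp15 and the helicase Ddx10 had differences below 0 in every fraction without passing, Wdr75 likewise at −0.27 to −0.12, and Rrp12 had differences above 0, up to 0.67 in CD24 medium.

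Of 14 large subunit factors, 4 fell in CD24 low, 4 in CD24 medium and 6 in CD24 high (28.6%, 28.6% and 42.9%), beside the same shares of all genes. Wdr12, which forms the PeBoW complex of large subunit maturation with Pes1 and Bop1, measured −0.29 and −0.21 in CD24 low, −0.21 and −0.26 in CD24 medium, −0.08 and −0.55 in CD24 high, and 1.41 in Lgr5 cells. The 6 Dll1 arrays lie together below the whole-intestine level, and the gap to Lgr5 is far wider than their spread. Wdr12 fell 3.15-fold in CD24 low (−1.66 ± 0.24 SE, adjusted p = 0.0068), 3.12-fold in CD24 medium (−1.64 ± 0.24 SE, adjusted p = 0.0072) and 3.31-fold in CD24 high (−1.72 ± 0.24 SE, adjusted p = 0.0026). It was the one member whose calls against Lgr5 held in every fraction under every alternative with a test, with adjusted p up to 0.044. Of its dimmer probes, one gave −1.09, −1.20 and −1.13 and another −0.25, −0.43 and −0.43 in CD24 low, medium and high. The brightest probe lies at chr1:60139004-60139184 on mm9.

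Of its partners, Pes1 had differences of −0.53 ± 0.22 SE in CD24 low, −0.53 ± 0.22 SE in CD24 medium and −0.62 ± 0.22 SE in CD24 high, none past the threshold. Its Lgr5 level was above all 6 Dll1 arrays, and its other probe, nearest the 3′ end, gave −0.76, −0.65 and −1.57 in CD24 low, medium and high. The difference between Wdr12 and Pes1 was not tested. Bop1 measured 0.66 and 0.49 in CD24 low, 0.68 and 0.45 in CD24 medium, 1.03 and 0.55 in CD24 high, and 0.59 in Lgr5 cells, with groups that overlap, and its differences lay between −0.03 and 0.19.

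Rrp15, a factor of large subunit processing, measured −0.01 and 0.02 in CD24 low, 0.10 and −0.04 in CD24 medium, −0.35 and −0.90 in CD24 high, and 1.29 in Lgr5 cells. CD24 high is below the other 2 fractions without overlap. Rrp15 fell 2.43-fold in CD24 low (−1.28 ± 0.26 SE, adjusted p = 0.019), 2.39-fold in CD24 medium (−1.26 ± 0.26 SE, adjusted p = 0.021) and 3.76-fold in CD24 high (−1.91 ± 0.26 SE, adjusted p = 0.0025). Nip7, needed for processing of the precursor, measured 0.01 and −0.14 in CD24 low, 0.22 and 0.04 in CD24 medium, −0.11 and −0.42 in CD24 high, and 1.21 in Lgr5 cells, all Dll1 arrays below Lgr5. Rrs1, which brings the 5S rRNA particle into the precursor in yeast, measured −0.10 and −0.12 in CD24 low, −0.09 and −0.18 in CD24 medium, 0.07 and −0.28 in CD24 high, and 0.99 in Lgr5 cells, with 3 fractions that overlap below Lgr5. Both fell in all 3 fractions, Nip7 by 1.27 in CD24 low, 1.08 in CD24 medium and 1.47 in CD24 high on the log2 scale, and Rrs1 by 1.1, 1.13 and 1.09 in the same order. All 3 genes lost their call in CD24 medium without either of its arrays, with adjusted p up to 0.096, and Rrp15 lost its call in CD24 low without CD24 low replicate 2 (adjusted p = 0.051).

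Nop16 and Ebna1bp2 fell in CD24 high, at −0.88 and −0.72, and the Nop16 value there rests on 1 array because of an outlier mark. Both calls were lost without CD24 high replicate 2 and without other single arrays, with adjusted p up to 0.089 for Nop16 and 0.11 for Ebna1bp2. Nop2 and Ftsj3, which encode methyltransferases, and Noc3l, Noc2l, Ddx18 and Rrp1 passed in no fraction. Noc3l came nearest, with −0.92 ± 0.27 SE in CD24 low (adjusted p = 0.055), and Rrp1 was above Lgr5 in CD24 low (0.63 ± 0.20 SE) and CD24 medium (0.67 ± 0.20 SE) without passing.

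**Figure D3:**
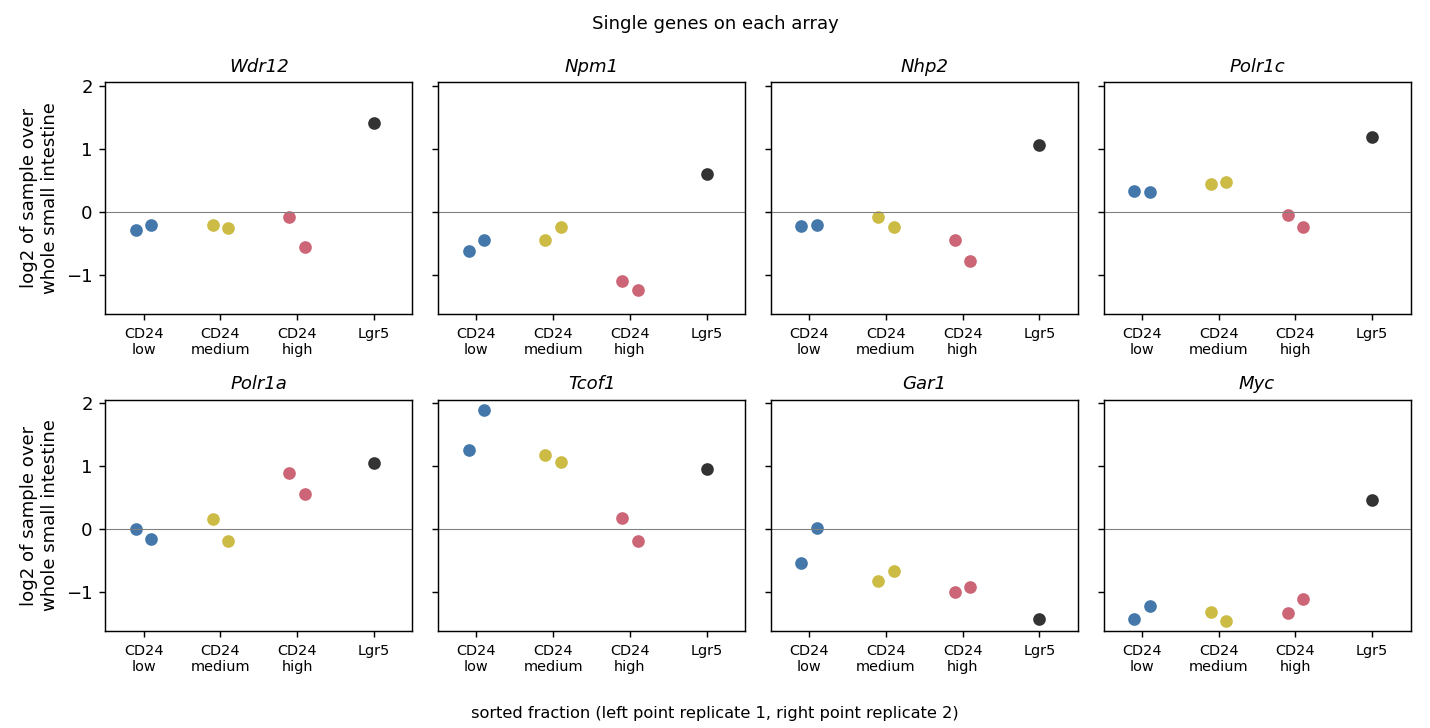
Level of 7 ribosome biogenesis genes and of Myc on each array, as log2 of sample over whole small intestine, 1 point per array. Wdr12 and Myc sit at one low level in all Dll1 fractions with Lgr5 above them, Npm1 is lowest in CD24 high, Polr1a and Tcof1 run in opposite ways across CD24, and Gar1 is lowest in Lgr5.

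Between CD24 low and CD24 medium no member passed. Under limma 0 of 46 were called, 0 had an unadjusted p under 0.05, and the median difference, CD24 low minus CD24 medium, was −0.01, while 0.114% of all genes were lower and 0% were higher. Single differences ran between −0.30 and 0.48, the largest for Gar1, at 0.48 ± 0.22 SE (adjusted p = 0.51). The interval that 2 arrays per group leave is wide, so this does not show that the fractions are alike.

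Against CD24 high, CD24 low had 5 members higher and 1 lower, where 6.84% of all genes were higher and 11.2% lower, and CD24 medium had 5 higher and 1 lower, where 7.52% were higher and 13.3% lower. The medians were 0.13 for CD24 low minus CD24 high and 0.15 for CD24 medium minus CD24 high, against 0.02 and 0.01 for all genes, and differences were below 0 for 13 and 16 of 46 members, against 48.5% and 49.5% of all genes. Both comparisons share the CD24 high arrays. Tcof1 was 2.97-fold higher in CD24 low (1.57 ± 0.25 SE, adjusted p = 0.0081) and 2.16-fold higher in CD24 medium (1.11 ± 0.25 SE, adjusted p = 0.025). Npm1 was higher by 0.63 ± 0.17 SE in CD24 low and 0.82 ± 0.17 SE in CD24 medium (adjusted p = 0.046 and 0.019).

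Rrp1, a nucleolar factor of large subunit processing, measured 1.40 and 1.55 in CD24 low, 1.41 and 1.63 in CD24 medium, 0.63 and 0.63 in CD24 high, and 0.85 in Lgr5 cells. Its 4 arrays of CD24 low and medium lie above both CD24 high arrays, which are alike, with differences of 0.85 ± 0.16 SE and 0.89 ± 0.16 SE for CD24 low and CD24 medium (adjusted p = 0.015 and 0.013). Noc4l was higher in both as well (0.69 ± 0.16 SE and 0.62 ± 0.16 SE), Mybbp1a in CD24 low (0.72 ± 0.19 SE) and Polr1c in CD24 medium (0.60 ± 0.15 SE). Polr1a ran against these, lower by −0.80 ± 0.20 SE in CD24 low and −0.73 ± 0.20 SE in CD24 medium (adjusted p = 0.039 and 0.046).

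These calls are few and rest on single arrays. Without CD24 low replicate 2 or CD24 high replicate 2, 1 member was called between CD24 low and CD24 high (Tcof1 kept its call under every alternative there), and without either CD24 medium array 2 were, as they were without CD24 high replicate 1. Between CD24 medium and CD24 high 1 was called without CD24 medium replicate 1 and 0 without CD24 medium replicate 2 or CD24 high replicate 2, and the split was 0 lower and 6 higher with the signals of the scanner software. On those signals all genes had a median of 0.23 for CD24 low minus CD24 high, and the members' median relative to all genes was −0.02 there, against 0.11 under loess.

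Further ribosome biogenesis genes were also lower against Lgr5, with smaller median differences than the members. Of 111 listed, 110 were measured, and 23 fell and 4 rose in CD24 low, 18 fell and 2 rose in CD24 medium, and 35 fell and 5 rose in CD24 high, against Lgr5. The shares that fell were 20.9%, 16.4% and 31.8%, where 9.78%, 8.5% and 14.6% of all genes fell and 11.9%, 10.3% and 21.2% rose. Their median differences were −0.37, −0.36 and −0.44 in the same order, with 0.10, 0.09 and 0.10 for all genes. Further snoRNP genes had the largest share, with 4, 5 and 7 of 9 lower, and of further RNA polymerase I genes 3, 1 and 2 of 15 were lower (20%, 6.67% and 13.3%), near the share of all genes in CD24 medium and CD24 high. Those with the largest differences in CD24 low were Naf1, an assembly factor of box H/ACA snoRNPs (−1.59 ± 0.28 SE, adjusted p = 0.016), Nifk (−1.26 ± 0.28 SE, adjusted p = 0.025) and Tex10 (−1.23 ± 0.20 SE, adjusted p = 0.0097). In CD24 medium they were Mrm3, which methylates mitochondrial rRNA (−1.31 ± 0.20 SE, adjusted p = 0.008), the histone-binding assembly factor Grwd1 (−1.27 ± 0.29 SE, adjusted p = 0.027) and Polr2h, a subunit shared by the 3 nuclear RNA polymerases (−1.26 ± 0.19 SE, adjusted p = 0.0074). Tex10 has another probe that gave −0.01 in CD24 low, −0.29 in CD24 medium and 2.08 in CD24 high.

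CD24 high cells held an exception. Dhx37, a helicase of small subunit maturation, had levels of 0.11 and 0.19 in CD24 low, 0.47 and 0.38 in CD24 medium, 3.99 and 3.31 in CD24 high, and 0.17 in Lgr5 cells. It rose 11.1-fold in CD24 high against Lgr5 (3.47 ± 0.29 SE, adjusted p = 0.00045), on the 1 probe the array holds for it. Snu13, a protein of box C/D snoRNPs, fell 3.26-fold there (−1.71 ± 0.20 SE, adjusted p = 0.0016), with 0.21 and 0.12 in CD24 low, 0.35 and 0.19 in CD24 medium, −0.29 and −0.55 in CD24 high, and 1.29 in Lgr5 cells. Sbds and Mphosph10, factors of the large and the small subunit, were also higher in CD24 high, by 1.51 ± 0.18 SE and 0.92 ± 0.26 SE over Lgr5 (adjusted p = 0.0016 and 0.033).

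Myc itself followed the same step. It measured −1.43 and −1.22 in CD24 low, −1.31 and −1.45 in CD24 medium, −1.32 and −1.11 in CD24 high, and 0.46 in Lgr5 cells. The 6 Dll1 arrays lie within a narrow range far below Lgr5. Myc fell 3.44-fold in CD24 low (−1.78 ± 0.21 SE, adjusted p = 0.0035), 3.58-fold in CD24 medium (−1.84 ± 0.21 SE, adjusted p = 0.0034) and 3.19-fold in CD24 high (−1.68 ± 0.21 SE, adjusted p = 0.0017), and did not pass between CD24 low and high (−0.11 ± 0.17 SE, adjusted p = 0.7) or medium and high (−0.16 ± 0.17 SE, adjusted p = 0.53). A further Myc probe gave −1.49, −1.69 and −1.31 in CD24 low, medium and high, and another gave −0.16, −0.46 and −0.02.

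In the Myc network of 11 genes, 2 fell and 3 rose in CD24 low, 3 fell and 2 rose in CD24 medium, and 3 fell and 2 rose in CD24 high. With 11 genes these counts lie within a few genes of the shares of all genes, of which 9.78%, 8.5% and 14.6% fell and 11.9%, 10.3% and 21.2% rose. Mycl, a relative of Myc, fell by 1.65 in CD24 low, 0.78 in CD24 medium and 1.55 in CD24 high on the log2 scale (adjusted p = 0.0033, 0.033 and 0.0016). Mnt and Mxd4, which oppose Myc at shared sites, rose: Mnt by 1.64, 1.75 and 1.32 and Mxd4 by 1.62, 1.83 and 2.03 in CD24 low, medium and high, with adjusted p = 0.0049, 0.0043 and 0.0046 for Mnt and 0.0049, 0.0036 and 0.00092 for Mxd4. A further Mxd4 probe gave 1.24, 1.36 and 1.63 in CD24 low, medium and high, and another gave 0.12, 0.32 and −0.15. The last probe was well above background on only 3 arrays. Mxd3, of the same family as Mxd4, was higher than in CD24 high by 1.43 ± 0.14 SE in CD24 low and 0.70 ± 0.14 SE in CD24 medium (adjusted p = 0.0014 and 0.019).

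Proliferation genes, a list of 18, were lower than in Lgr5 cells in each Dll1 fraction and lowest in CD24 high. Against Lgr5, 9 of 18 fell in CD24 low, 14 in CD24 medium and 16 in CD24 high, with median differences of −0.91, −1.33 and −2.61. Of all genes 9.78%, 8.5% and 14.6% fell in the same order. Their median level on the arrays was 0.28 and 0.25 in CD24 low, −0.14 and −0.40 in CD24 medium, −1.25 and −1.31 in CD24 high, and 1.00 in Lgr5 cells. Between CD24 low and CD24 high 16 of 18 were higher in CD24 low, with a median of 1.60, where the members had 5 of 46 and 0.13. Of all genes 6.84% were higher there, with a median of 0.02, so the members' count lies within a few genes of that share. The difference between the lists was not tested.

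**Figure D4:**
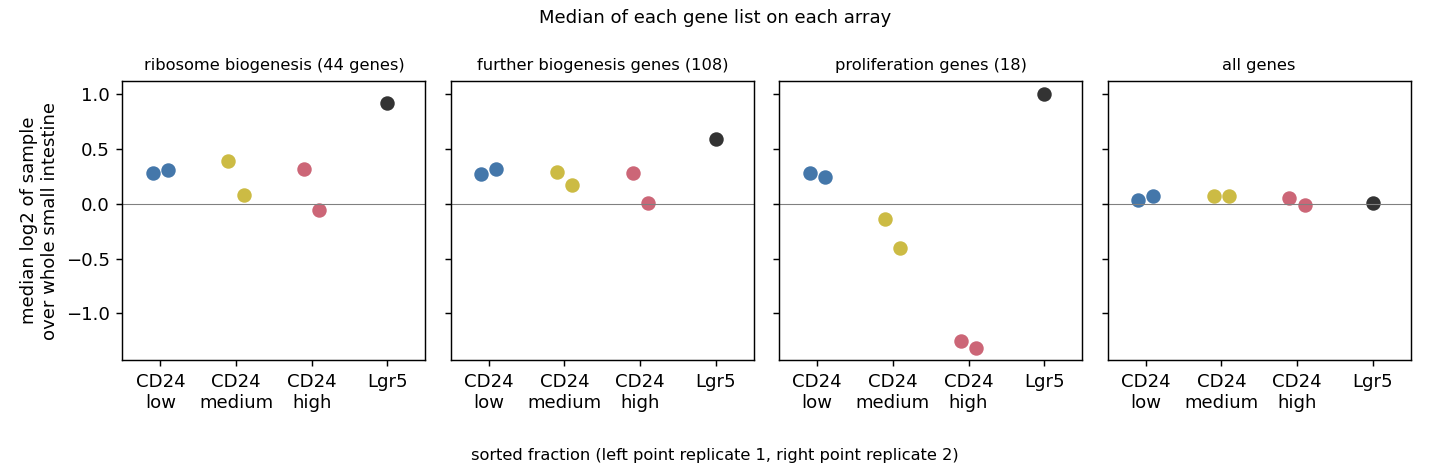
Median level of 4 gene lists on each array, as log2 of sample over whole small intestine, 1 point per array. The ribosome biogenesis members and the further biogenesis genes are lower on all 6 Dll1 arrays than on the Lgr5 array, the proliferation genes go down through CD24 low and medium to −1.25 and −1.31 in CD24 high, and all genes stay near 0.

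Where a member had several measured probes, the one nearest the 3′ end mostly showed the larger loss. Of 15 members with 2 or more such probes and a known strand, that probe was more negative than the mean of the others in 13 for CD24 low, 14 for CD24 medium and 13 for CD24 high, against 64.1%, 59.2% and 56.5% of 4131 genes. Median differences were −0.79, −0.75 and −0.90 at the 3′-most probe and −0.13, −0.25 and −0.45 at the other probes. The brightest probe, used for the values above, was the 3′-most in 8 of the 15. With the 3′-most probe throughout, 19 members were called in CD24 low, 16 in CD24 medium and 21 in CD24 high. These counts stand without those of all genes under the same probe choice. The members' median relative to all genes was −0.74, −0.78 and −0.90 with that probe, against −0.695, −0.74 and −0.86 with the brightest.

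**Figure D5:**
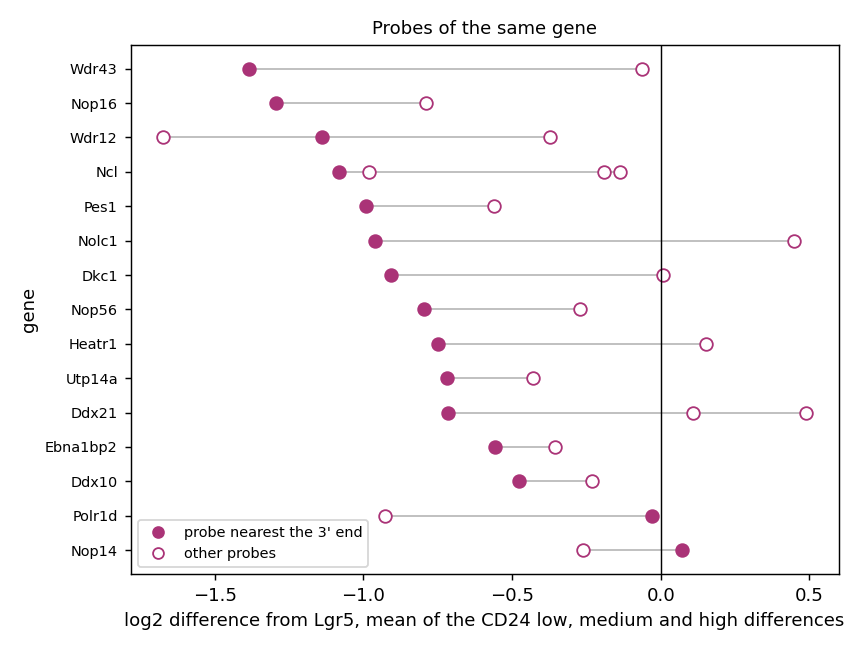
Mean of the 3 differences from Lgr5 for each measured probe of 15 members, with the probe nearest the 3′ end filled and the others open. The filled point is left of every open point for most genes, and Wdr12, Polr1d and Nop14 have an open point further left.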

How the data were processed

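Sample and whole small intestine RNA were hybridised together on 7 two-colour Agilent arrays with probes of 60 bases, from 100 ng of total RNA per the labels' protocols. The deposited array files hold spot intensity in both channels from Agilent Feature Extraction 10.5.1.1, per the file headers, and the deposited series matrix holds log10 ratios that equal the files' ratio column with its sign turned, to within 5e-06. From the intensities log2 ratios of sample over whole small intestine were computed in limma 3.58.1 (R 4.3.3, the data.table package, 1.17.8) by normexp with an offset of 50 and loess within each array with a span of 0.3. Control spots had weight 0 and spots marked as outliers in the sample channel were left out. Probes well above background in the sample channel on at least 2 of 7 arrays were kept (24495), and the brightest probe stood for a gene (17537 genes). Symbols came from RefSeq accessions for 26918 probes and from the array files for 14256. Probe coordinates are on mm9, and RefSeq promoter windows on GRCm38.p6.

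The model held a mean for each group over the 7 arrays, with 3 residual and 3.55 prior degrees of freedom, and the Benjamini-Hochberg adjustment ran over all genes. The members and all lists were chosen with earlier results of these data known, so lists are described by counts and medians beside those of all genes. Values on every array are given for the 2 members with the largest and the 1 with the smallest absolute mean difference from Lgr5 in each role, for Ncl, Npm1, Fbl, Polr1a, Polr1b and Dkc1, and for members called against the majority; Rrp1, Nip7, Rrs1, Snu13 and Dhx37 were added after their values were seen. Of the further genes and the Myc network, up to 3 with the largest difference past the threshold in a comparison are named, and always Myc. The fit was tested on simulated data, where it made few false calls but missed nearly all of the smaller changes against Lgr5. Far fewer genes changed in that simulation than were called against Lgr5 here, so its rates do not carry over to these data. Alternatives were other background corrections, scalings, filters, probe choices, names, variance models, slide terms, a replicate block and leaving out each array. The 0 saturated spots set no bound, and the number of arrays limits the precision. Plots used matplotlib 3.10.9 (Python 3.11.15).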

Additional observations from a re-analysis of the deposited data

How the results depend on the processing

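Of the recomputed counts and medians of the members, 249 stayed within the limits set (1.5 times a count, 0.19 for a median, the SD between replicates), 30 moved and 0 reversed. The 249 include medians that could not move, such as those with an intensity trend in the variance model or without an array outside the comparison. Against Lgr5 the members' median stayed below 0 under every alternative. With Agilent's processed signals or the series matrix it was −0.79 in CD24 low and −0.97 in CD24 high, where the median of all genes shifted too, and 9 members were called in CD24 medium. An offset of 16 gave 9 calls in CD24 medium minus Lgr5, 2 in CD24 low minus CD24 high and 3 in CD24 medium minus CD24 high. The sample channel alone gave 29 in CD24 high minus Lgr5 and 11 in each comparison with CD24 high. Slide as a term gave 1 call and a median of −0.29 in CD24 low minus Lgr5. Within slide 1 the median of CD24 high minus Lgr5 was −0.55, and within slide 2 there was 1 call in CD24 low minus CD24 high and 0 in CD24 medium minus CD24 high, with fewer arrays. Fitting the compared groups alone left 2 calls in CD24 low minus CD24 high. Leaving out single arrays gave 7 to 16 calls in CD24 low minus Lgr5, 1 to 13 in CD24 medium minus Lgr5, 13 to 20 in CD24 high minus Lgr5 (median −0.87 to −0.55), 1 to 6 in CD24 low minus CD24 high and 0 to 6 in CD24 medium minus CD24 high. Without the Lgr5 array no comparison with it could be made. Among single genes called, Polr1d in CD24 low minus Lgr5 reversed to 0.19 with the probe nearest the 3′ end, an alternative chosen after seeing the data. The cause of these changes was not tested. The fit with the replicate number as a block gave 18, 14 and 23 calls against Lgr5 in CD24 low, medium and high, 6 in CD24 low minus CD24 high, 6 in CD24 medium minus CD24 high and 0 in CD24 low minus CD24 medium. In CD24 low minus Lgr5 the calls over all genes rose from 3798 to 4516 with that block, while those of members went from 16 to 18. An offset of 16 gave 2844 over all genes there, and 15 members. The other member counts of this section stand without those of all genes, so they do not show a change particular to the members. Deviations of same-numbered arrays correlated at 0.477 for CD24 low with medium, −0.005 for low with high and 0.3 for medium with high, so not every pair deviated together and the number was not taken as a pairing. The share of gene probes well above background was lowest on the CD24 high arrays, at 44.4 and 42.5%. Of the 46 members' probes, 46 and 45 stood well above background there. The members' median sample intensity was 343.8 and 279.6 on these arrays, against 1498 on the Lgr5 array. The median over all gene probes was 77.6 and 79.31, against 79.68.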
